A study of Mus musculus with 3 samples.

Results

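The leukocyte integrins and the anaphylatoxin receptors were followed here as 8 genes, taken by name from a table of 54532 genes: the integrin alpha subunits Itgal, Itgam, Itgax and Itga4, the beta subunits Itgb2 and Itgb5, and the complement peptide receptors C3ar1 and C5ar1. All 8 names were found once each in the table. RNA-seq had been done on hippocampus of 10-month-old C57BL/6 mice, with 1 library from each of 3 genotypes: wild type (WT), PS19, and PS19 with loss of 1 Zbp1 allele (PS19 Zbp1+/-). The PS19 transgene encodes human tau under the mouse Prnp promoter, which limits it as a model: expression follows that promoter, not the tau gene's own. The Zbp1-deficient library carries the same transgene, and no library with the Zbp1 allele alone was analysed here. The labels give neither the sex of the animals nor whether tissue was pooled. With a single library per genotype there is no replicate check and no test between genotypes. Intervals are exact 95% intervals and cover counting error only, since PCR copies of one molecule cannot be separated. Where 3 values stand in a row, their order is WT, PS19, PS19 Zbp1+/-.

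Integrins are adhesion receptors made of an alpha and a beta subunit, and a leukocyte sets its binding partners by the alpha subunit that it joins to the shared beta2 chain, Itgb2. Itgal with Itgb2 forms LFA-1, a receptor for intercellular adhesion molecules; Itgam with Itgb2 forms Mac-1, the complement receptor that binds the C3 fragment iC3b and is carried by microglia; Itgax with Itgb2 forms CD11c/CD18, also a receptor for iC3b, known as a marker of dendritic cells and of microglia around lesions. Itga4 joins Itgb1 or Itgb7 and binds Vcam1, and Itgb5 joins Itgav and binds vitronectin and Mfge8. C3ar1 and C5ar1 are G protein-coupled receptors for C3a and C5a, the small peptides released when complement C3 and C5 are cleaved.

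Upstream sequence was held by the RefSeq promoter table (GRCm38.p6) for 6 of the 8 genes. The 100 bases that end where the first annotated exon begins are shown for Itgax, Itgam and C3ar1, whose sequence holds a motif searched for. They are also shown for Itgb5, the most abundant member, whose upstream sequence held the most CG dinucleotides of the 6. All 4 genes had their highest level in PS19. Capitals mark GAGGAA, a core bound by ETS factors such as PU.1, and TGAGTCA, the AP-1 site, on either strand.
Itgax, chr7:128129447-128129546, plus strand: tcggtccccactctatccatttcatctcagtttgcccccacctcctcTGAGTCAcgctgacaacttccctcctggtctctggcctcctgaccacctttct
Itgam, chr7:128062540-128062639, plus strand: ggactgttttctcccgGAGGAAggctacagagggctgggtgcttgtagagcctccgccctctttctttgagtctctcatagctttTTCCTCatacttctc
C3ar1, chr6:122856162-122856261, minus strand: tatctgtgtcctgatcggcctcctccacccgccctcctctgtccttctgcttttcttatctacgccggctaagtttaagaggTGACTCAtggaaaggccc
Itgb5, chr16:33829565-33829664, plus strand: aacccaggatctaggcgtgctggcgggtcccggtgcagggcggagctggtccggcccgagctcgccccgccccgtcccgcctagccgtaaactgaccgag

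In the 250 bases before the start, searched on both strands, TGAGTCA was present in 2 of the 6 members, against 4.46% of all 32851 promoters of the table. In Itgax it lay 56 to 50 bases before the RefSeq start, and in C3ar1 22 to 16 bases before it. GAGGAA was present in 1 member, Itgam, at 84 to 79 bases and, on the opposite strand, at 15 to 10 bases before the start, against 23.3% of all promoters. The shorter GGAA core, which GAGGAA contains, was found in 5 of 6 members and in 93.4% of all promoters, and an interferon-stimulated response element motif (GAAA, any 2 bases, GAAA) in 0 of 6 and in 2.98%. The Itgb5 stretch held the most CG dinucleotides: its 250 bases had 18, with 65.2% G or C. Itgax had 5 and 50%, Itgam 6 and 49.6%, C3ar1 5 and 45.6%, and C5ar1 2 and 52.8%. Itga4 had 6 and 64%, so the G or C share of Itgb5 was not particular to it. These letters are a description of the sequence, and no binding was measured.

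Several features of the libraries touch the members. Reads recovered from the deposited values totalled 16400328 to 17109734 per library. Zbp1 itself had 5, 91 and 0 reads. With the 0 set to 3 reads it was 27.8-fold lower in PS19 Zbp1+/-, which by its label keeps 1 allele, than in PS19. Mouse Mapt was level, at 63.0, 65.1 and 65.3 FPKM. Xist had 11062, 13350 and 0 reads in the same order and the Y-linked Ddx3y 0, 0 and 711, so sex cannot be told apart from the Zbp1 genotype. Hippocampal neuron markers were present in every library but were not level, and the 9 summed to 446, 356 and 660 FPKM. Prox1 was at an FPKM of 5.20 to 9.51 and Neurod6 at 50.8 to 69.4. Fibcd1 was at 37.0, 27.0 and 111, and Slc17a7 at 206, 172 and 371. Of the 9, 6 were higher and 3 lower in PS19 Zbp1+/- than in PS19. The 9 choroid plexus markers summed to 3417 FPKM in WT, against 2175 in PS19 and 25.6 in PS19 Zbp1+/-, so the last library differed from both others in tissue content too. It also held fewer weakly expressed genes: of 357 genes with 8 to 12 reads in both other libraries, 57 (16.0%, interval 12.3% to 20.2%) had no read there.

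Itgb2, the shared beta2 chain (chromosome 10, 77530252 to 77565708, plus strand), had an FPKM of 1.39 in WT, against 10.0 in PS19 and 1.93 in PS19 Zbp1+/-, from 73, 529 and 93 reads. FPKM divides a gene's fragments by its length and by a library size, here the size implied by the deposited values. The PS19 library stood alone at the high end. Its read ratio to WT, per library size, was 7.23 (interval 5.65 to 9.37), and PS19 Zbp1+/- was 5.21-fold below PS19 (4.17 to 6.56). In this bulk tissue fewer cells of a type and less RNA per cell cannot be told apart.

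Itgax, the CD11c chain (chromosome 7, 128129547 to 128150657, plus strand), showed the widest spread of the 8 genes. Its FPKM was 0.169 in WT, against 7.25 in PS19 and 0.0658 in PS19 Zbp1+/-, from 14, 602 and 5 reads. It was close to undetected in 2 libraries and among the 3 most abundant members in the PS19 library. PS19 exceeded WT by a read ratio of 42.9 (25.4 to 79.0), and PS19 Zbp1+/- was 110.2-fold below PS19 (47.0 to 341). On the log2(FPKM + 1) scale, which understates differences of weakly expressed genes, the differences were 2.82 and -2.95.

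Itgam, the CD11b chain (chromosome 7, 128062640 to 128118491, plus strand), followed the same order with a smaller spread. Its FPKM was 1.05 in WT, against 2.38 in PS19 and 0.667 in PS19 Zbp1+/-, from 91, 207 and 53 reads. The read ratio of PS19 to WT was 2.27 (1.77 to 2.94), and PS19 Zbp1+/- lay 3.58-fold below PS19 (2.63 to 4.93). Of Itgam's exonic bases, 3450 are also exons of Gm49368, a gene on the same strand listed at 0 reads in all 3 libraries. How reads in those shared exons were counted is not given in the sources used here, so the level of Itgam against other genes is uncertain.

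Itgal, the LFA-1 alpha chain of lymphocytes and other leukocytes (chromosome 7, 127296260 to 127335138, plus strand), was the rarest member. Its FPKM was 0.0882 in WT, against 0.625 in PS19 and 0 in PS19 Zbp1+/-, from 10, 71 and 0 reads. PS19 was 7.09-fold above WT in reads (3.64 to 15.4). PS19 Zbp1+/- was at least 17.2-fold lower than PS19 by the exact interval. With its count of 0 set to 3 reads, equal to an FPKM of 0.0289, it was 21.7-fold lower.

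**Figure D1:**
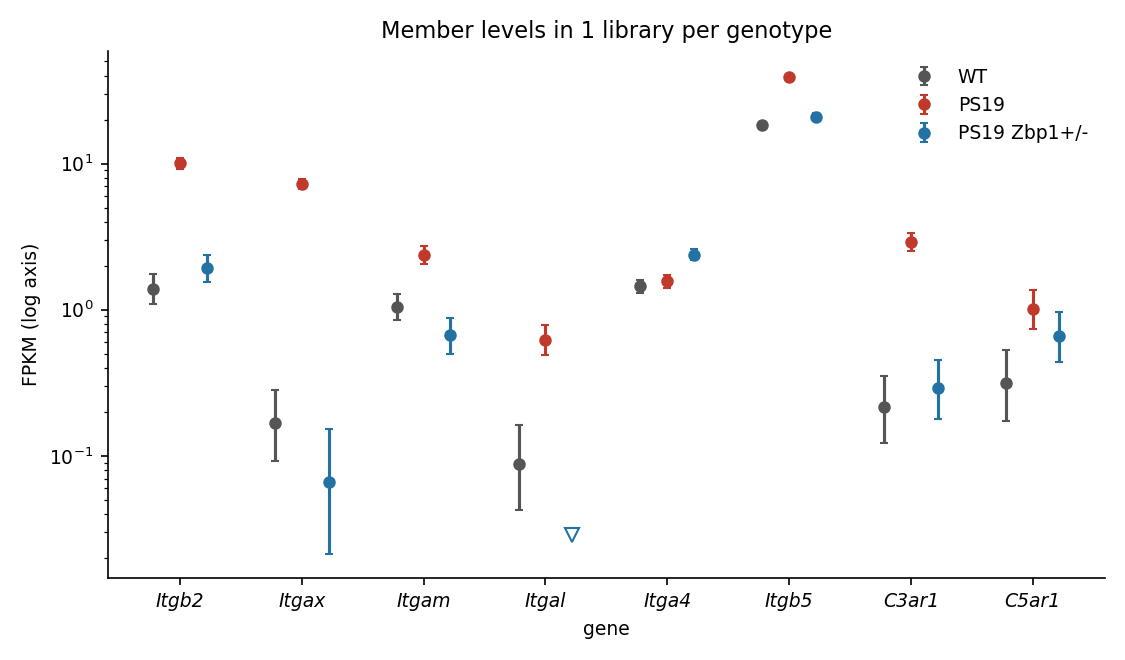
FPKM of the 8 genes (log axis) in the WT, PS19 and PS19 Zbp1+/- libraries, 1 library each; bars are exact 95% counting intervals, and the open triangle marks the FPKM of 3 reads where Itgal had none in PS19 Zbp1+/-. PS19 is the highest library for 7 genes, and Itga4 is highest in PS19 Zbp1+/-.

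The alpha chains that pair with Itgb2 differed in rank between libraries. The summed FPKM of Itgal, Itgam, Itgax and Itgad, the fourth partner, was 1.41 in WT, against 10.4 in PS19 and 0.788 in PS19 Zbp1+/-. Itgam made up 74.5% of this sum in WT and 84.5% in PS19 Zbp1+/-, but 22.9% in PS19, where Itgax made up 69.6%. Counted in reads, Itgax was 13.3% of the 105 Itgax and Itgam reads of WT (7.49% to 21.4%), 74.4% of the 809 reads of PS19 (71.3% to 77.4%) and 8.62% of the 58 reads of PS19 Zbp1+/- (2.86% to 19.0%). The PS19 interval lies apart from the other two, which overlap each other. The FPKM of Itgb2 was 0.983 times the alpha sum in WT, 0.963 times in PS19 and 2.44 times in PS19 Zbp1+/-. These levels carry the doubt about Itgam's shared exons, and 8.02% of the 50-base words of Itgax transcripts also occur in Itgad.

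**Figure D2:**
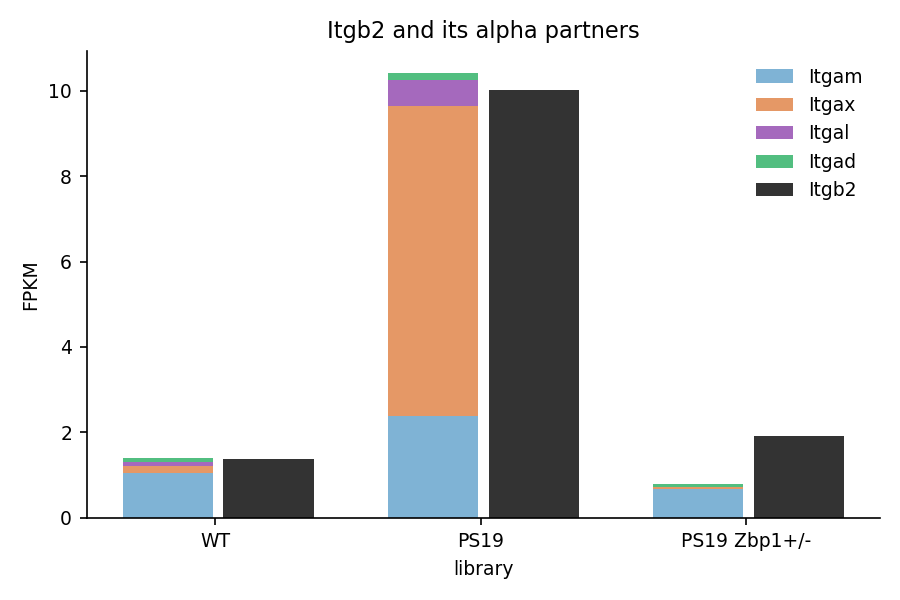
FPKM of the 4 alpha partners (stacked bars) beside Itgb2 (dark bar) in each of the 3 libraries, 1 library each, without error bars. The stack and the dark bar are nearly equal in WT and PS19, and Itgax fills most of the PS19 stack.

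Itgad, CD11d, lies next to Itgax, 3.72 kb beyond its end, and Itgax lies 11.1 kb beyond Itgam, while Itgal is 728 kb away on the same chromosome. Despite that position Itgad had 8, 12 and 4 reads, and the interval of its PS19 to WT ratio ran from 0.563 to 4.22. A further 10 protein-coding genes lie within 100 kb of the Itgam to Itgad block, of which 6 reached 1 FPKM in PS19 or WT, and 0 of the 10 differed by 1 unit or more on the log2(FPKM + 1) scale between those libraries, with differences of -0.04 to 0.95 among the 6. The highest of these was Pycard, the inflammasome adaptor ASC, with 24, 108 and 16 reads. Pycard was the 1 gene of the 10 past that threshold in PS19 Zbp1+/- against PS19, at -1.06. Around Itgal, 0 of 13 other genes within 100 kb differed by 1 unit on that scale in any of the 3 comparisons, with a range of -0.86 to 0.95 in PS19 Zbp1+/- against PS19. This scale understates weakly expressed genes, Pycard included.

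Itga4, the alpha4 chain (chromosome 2, 79255426 to 79333123, plus strand), was the 1 member integrin with its highest level outside PS19. Among the other subunits Itga3 had the same order, with 397, 454 and 591 reads. Itga9 had it in FPKM, at 0.739, 0.857 and 0.912, within counting error. The FPKM of Itga4 was 1.45 in WT, against 1.56 in PS19 and 2.38 in PS19 Zbp1+/-, from 349, 377 and 527 reads. WT and PS19 were within counting error of each other, at a ratio of 1.08 (0.930 to 1.25), and the PS19 Zbp1+/- library was the highest, at 1.53-fold of PS19 (1.34 to 1.75) and 1.65-fold of WT (1.44 to 1.89). Its partners did not share this order: Itgb1 had 1088, 1296 and 797 reads, and Itgb7 had 12, 27 and 9. Exons of Cerkl on the other strand overlap 1124 exonic bases of Itga4, and Cerkl was level at an FPKM of 0.318, 0.328 and 0.335.

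Itgb5, the beta5 chain (chromosome 16, 33829665 to 33949338, plus strand), was the most abundant member in every library. Its FPKM was 18.3 in WT, against 38.9 in PS19 and 20.8 in PS19 Zbp1+/-, from 1119, 2392 and 1170 reads. PS19 was 2.13-fold above WT (1.99 to 2.29), and PS19 Zbp1+/- was 1.87-fold below PS19 (1.74 to 2.01). By the implied library sizes PS19 Zbp1+/- was 1.14-fold above WT (1.05 to 1.24). That last difference, 0.18 on the log2(FPKM + 1) scale, depends on the scaling and ran from 0.03 to 0.19 under the alternatives given at the end. Its alpha partner Itgav spread less, at 5.03, 6.46 and 3.90 FPKM, so the FPKM of Itgb5 over that of Itgav was 3.63, 6.03 and 5.33. The processed pseudogene Gm38317 shares 7.25% of the 50-base words of Itgb5 and had 20, 16 and 12 reads. The 6 astrocyte markers, summed, were also highest in PS19, at 348, 1163 and 382 FPKM, and their part in the level of Itgb5 was not tested.

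C3ar1, the C3a receptor (chromosome 6, 122847138 to 122856161, minus strand), stood at an FPKM of 0.215 in WT, against 2.92 in PS19 and 0.294 in PS19 Zbp1+/-, from 16, 217 and 20 reads. PS19 was again alone at the high end, 13.5-fold above WT (8.15 to 24.1), and PS19 Zbp1+/- was 9.93-fold below PS19 (6.27 to 16.6). C5ar1, the C5a receptor (chromosome 7, 16246743 to 16259540, minus strand), stood at an FPKM of 0.316, 1.01 and 0.664, from 14, 45 and 27 reads. The PS19 to WT ratio of C5ar1 was 3.21 (1.73 to 6.33). Its difference between PS19 Zbp1+/- and PS19 was not detectable at this depth, with a ratio of 0.655 (0.391 to 1.08). The FPKM of C3ar1 over that of C5ar1 was 0.682 in WT, against 2.88 in PS19 and 0.442 in PS19 Zbp1+/-. C3ar1 was the higher receptor in PS19, with counting intervals of 2.54 to 3.33 FPKM against 0.739 to 1.36. In WT and in PS19 Zbp1+/- the intervals of these receptors overlapped, so their order there is not settled. C5ar2, the second C5a receptor, had 11, 40 and 12 reads.

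**Figure D3:**
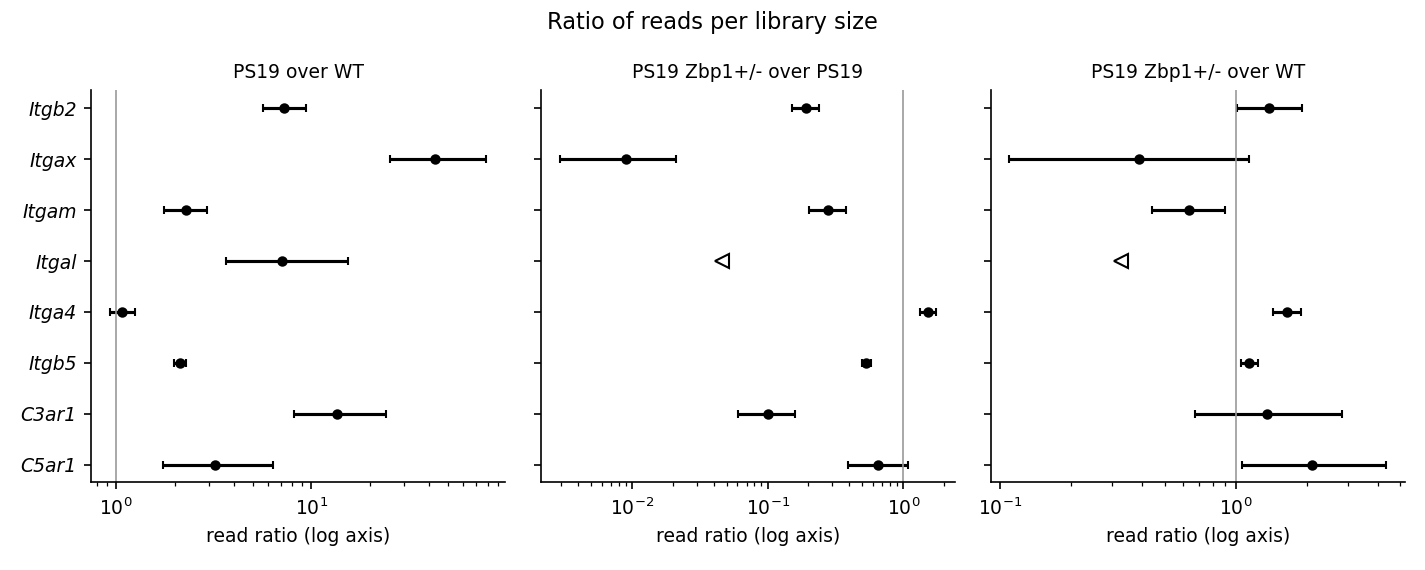
Ratio of reads per library size (log axis, scaled separately in each panel) for the 8 genes in the 3 comparisons of libraries; points are ratios, bars exact 95% counting intervals, and open triangles upper bounds for Itgal. In the first panel 7 intervals lie above 1 and that of Itga4 spans it; in the second, Itga4 alone lies above 1 and the interval of C5ar1 spans it.

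Counted by a fixed size of difference, at least 1 unit of log2(FPKM + 1) or 2-fold on that scale, 4 of the 8 genes were higher in PS19 than in WT: Itgax (2.82), Itgb2 (2.21), C3ar1 (1.69) and Itgb5 (1.05). None of the 8 was lower by that rule, and counts of genes past 2-fold in the paragraphs that follow use it too. Over the 12703 protein-coding genes that reached 1 FPKM in one or both libraries, 2.20% were higher and 0.291% lower, and the median difference was -0.03, against 0.89 over the 8 genes. Itgam (0.72), C5ar1 (0.61), Itgal (0.58) and Itga4 (0.07) stayed under 2-fold. Itgal was under an FPKM of 1 in both libraries and could not have reached the threshold on this scale. The call of Itgb5 is near the limit, with a counting interval of 0.95 to 1.15.

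In PS19 Zbp1+/- against PS19, a comparison that shares the PS19 library with the first, 4 genes were at least 2-fold lower: Itgax (-2.95), Itgb2 (-1.91), C3ar1 (-1.60) and Itgam (-1.02). The counting interval of Itgam, -1.22 to -0.81, spans the threshold. Itgb5 (-0.87), Itgal (-0.70) and C5ar1 (-0.27) were lower by less on this scale, Itga4 (0.40) was higher, and 0 genes were higher by 2-fold. Itgal was under an FPKM of 1 in both libraries and could not have reached the threshold. In reads it went from 71 in PS19 to 0 in PS19 Zbp1+/-, at least 17.2-fold lower by the exact interval. Among 12772 protein-coding genes the shares were 5.16% lower and 2.0% higher, with a median of 0.04 against -0.95 over the 8 genes. Scaling by total reads instead moved the median of all tested genes to -0.12 and the share of higher genes among calls from 27.9% to 14.6%; 5 members were then called lower, Itgb5 included.

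Between PS19 Zbp1+/- and WT, 0 of the 8 genes differed by 2-fold in either direction, where 1.07% of 12436 protein-coding genes were higher and 2.28% lower on the log2(FPKM + 1) scale. Only 4 of the 8 could have been called, since Itgax, Itgal, C3ar1 and C5ar1 were under 1 FPKM in both libraries. The largest differences were those of Itga4 (0.47), C5ar1 (0.34), Itgam (-0.30) and Itgb2 (0.29). In reads, Itgam was 1.58-fold below WT (1.11 to 2.25) and C5ar1 was 2.10-fold above it (1.06 to 4.34). Itgal, with 10 against 0 reads, was at least 2.06-fold lower by its exact interval. The intervals of Itgax (0.110 to 1.14) and C3ar1 (0.671 to 2.81) included 1. At 5 to 27 reads per gene, differences of Itgax, C3ar1 and C5ar1 smaller than these intervals could not be seen. The ratios use the implied library sizes. Scaling by total reads instead moved the median of all tested genes from 0.01 to -0.13 in this comparison, so interval limits near 1 depend on the scaling.

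The order of the members by FPKM also differed. In WT it was Itgb5, Itga4, Itgb2, Itgam, C5ar1, C3ar1, Itgax and Itgal, and the counting intervals of neighbours overlapped from Itga4 to Itgam and again from C5ar1 to Itgal. In PS19 Itgb2 and Itgax held ranks 2 and 3 behind Itgb5, at 10.0 and 7.25 FPKM, with intervals apart from each other and from their neighbours. In PS19 Zbp1+/- the order was that of WT, with Itgax at rank 7 and Itgal at rank 8. Intervals of neighbours there overlapped for Itga4 and Itgb2, from Itgam to C3ar1, and for Itgax and Itgal.

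The rest of the integrin family spread less between PS19 and WT on the log2(FPKM + 1) scale. Of 21 other subunits, 9 reached 1 FPKM in PS19 or WT and 0 differed by 2-fold on that scale in either direction. The medians were 0.16 over 14 alpha and 0.31 over 7 beta subunits. In reads, the PS19 to WT ratio was 2.01 for Itga6 (1.78 to 2.27) and 2.25 for Itgb7 (1.10 to 4.87). It was 3.74 for Itgae (1.19 to 15.5) and 3.99 for Itgb2l (1.08 to 22.0), both weakly expressed. Itgb6 ran the other way, at 0.143 (0.00316 to 1.11). The largest among them were Itga6, a laminin receptor chain, at 0.79 (410, 825 and 337 reads) and its partner Itgb4 at 0.52 (286, 462 and 265 reads). In PS19 Zbp1+/- against PS19, Itgb8, which with Itgav activates TGF-beta, was at -1.53 (1725 to 433 reads), and Itga7 was at -1.27 (795 to 228 reads). Itgb8 was also below WT by 2-fold on the log2(FPKM + 1) scale, at -1.22. No member was by that scale, on which Itgal and Itgax could not be called. In reads Itgal had 10 in WT and 0 in PS19 Zbp1+/-, and Itgax had 14 and 5.

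Ligands of these integrins differed in both directions. Of 17 genes 1 was higher by 2-fold in PS19 than in WT, Icam1, the ligand of LFA-1 and Mac-1, with 38, 160 and 33 reads and a ratio of 4.20 (2.93 to 6.15). Spp1, osteopontin, was at 0.88 and Mfge8, a bridging ligand of the beta5 integrin, at -0.86; the median of the 17 was 0.04. Mfge8 ran opposite to Itgb5, with an FPKM of 39.1 in WT, against 21.1 in PS19 and 66.5 in PS19 Zbp1+/-, while vitronectin (Vtn) was level at 41.1, 43.4 and 47.1. Vcam1, the ligand of Itga4, had 696, 852 and 215 reads and fibronectin (Fn1) 740, 1244 and 1269. In PS19 Zbp1+/- against PS19, Mfge8 was the 1 ligand higher by 2-fold (1.61), and 4 were lower, among them Spp1 (-2.64), Vcam1 (-1.37) and Icam1 (-1.08).

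Among 20 genes of integrin activation and adaptor function, 5 were higher by 2-fold in PS19 than in WT and 0 lower, with a median of 0.49, and 4 were lower by 2-fold in PS19 Zbp1+/- than in PS19. Those highest were Tyrobp, the DAP12 adaptor, at 2.06 (131, 582 and 114 reads), Plek, pleckstrin, at 1.88 (169, 829 and 149), and Lcp1, the leukocyte plastin, at 1.33 (123, 561 and 167). Fermt3, the kindlin that activates beta2 integrins, was under the threshold, with 110, 192 and 75 reads and a PS19 to WT ratio of 1.74 (1.37 to 2.22). Syk, the kinase downstream of Tyrobp, had 72, 194 and 65 reads.

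The source of the C3a peptide and the source of C5a differed in level. C3 had 73, 768 and 11 reads, with PS19 10.5-fold above WT (8.25 to 13.5). Hc, which encodes C5, had 12, 10 and 7 reads, and no difference was detectable, at a PS19 to WT ratio of 0.832 (0.322 to 2.10). Of the 13 precursor, convertase and receptor genes of this list, 2 were higher by 2-fold in PS19, C4b (3.47) and C3 (2.40), and the same 2 were lower in PS19 Zbp1+/- than in PS19. C1ra was at 0.47, and the median of the 13 was 0.13. Of 9 complement inhibitors Serping1, the C1 inhibitor, was at 1.02 in PS19 against WT, and Cd59a was at -0.41. In PS19 Zbp1+/- against PS19, Serping1 (-2.58) and Cd59a (-1.52) were lower by 2-fold.

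**Figure D4:**
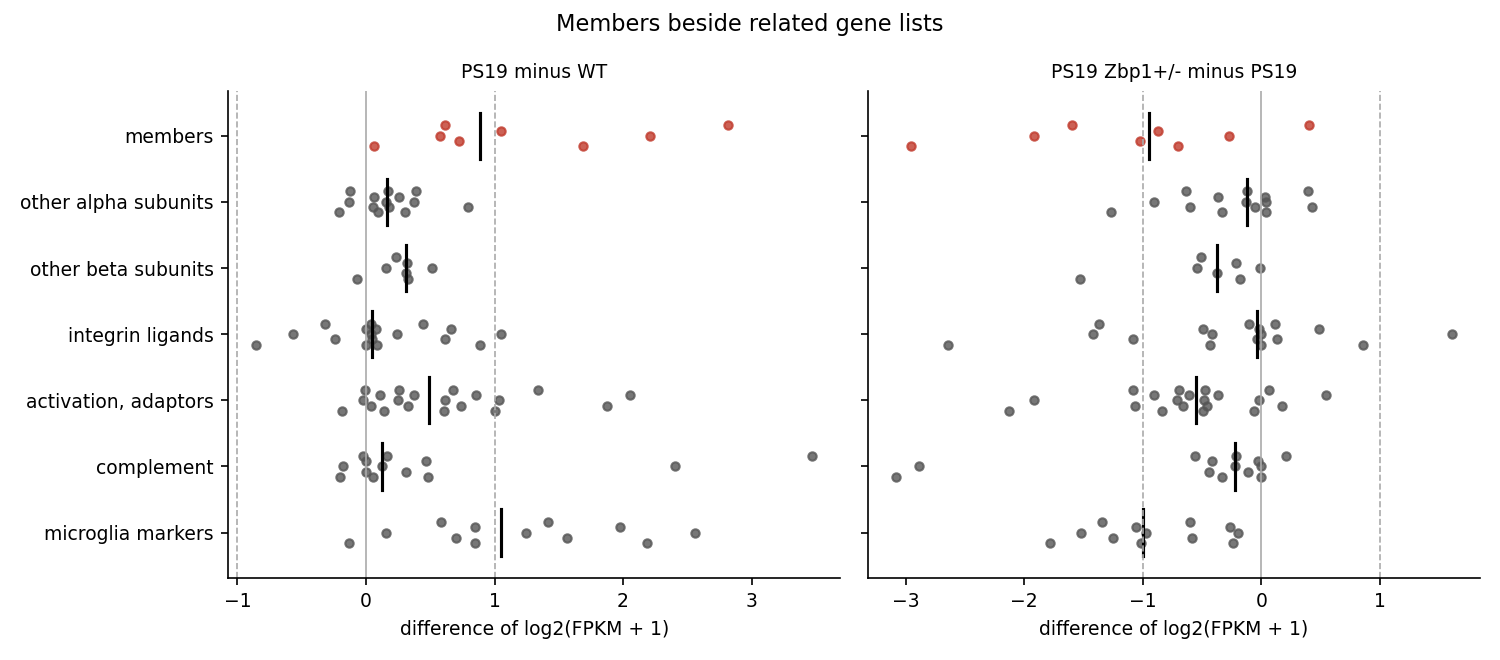
Difference of log2(FPKM + 1) for each gene of 7 lists (points; the 8 members in red) for PS19 against WT and for PS19 Zbp1+/- against PS19, which share the PS19 library; short lines are list medians and dashed lines mark 2-fold. The medians of the members are 0.89 and -0.95 and those of the microglia markers 1.05 and -0.99.

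Markers of microglia were highest in PS19 too. Their summed FPKM over 12 genes was 97.6 in WT, against 256.9 in PS19 and 120.2 in PS19 Zbp1+/-; 6 of the 12 were higher by 2-fold in PS19 than in WT, and 6 were lower in PS19 Zbp1+/- than in PS19. Fcrls (2.56), Cx3cr1 (2.18) and Trem2 (1.98) led the first comparison, whereas Tmem119 (0.16) and P2ry12 (-0.13) differed little. In PS19 Zbp1+/- against WT, 2 of the 12 were higher by 2-fold on the log2(FPKM + 1) scale, Fcrls (1.54) and Cx3cr1 (1.21). No member was, but only 4 of the 8 could have been called there, against all 12 markers. C5ar1, which could not, was 2.10-fold above WT in reads (1.06 to 4.34). Per 100 FPKM of this sum, Itgax was at 0.173 in WT, against 2.82 in PS19 and 0.0547 in PS19 Zbp1+/-, C3ar1 at 0.221, 1.14 and 0.244, Itgb2 at 1.42, 3.90 and 1.60, and Itgal at 0.0904, 0.243 and 0. These 4 were highest in PS19 by this measure. Itgam (1.08, 0.928 and 0.555) was highest in WT, C5ar1 (0.323, 0.394 and 0.552) in PS19 Zbp1+/-, and Itgb5 (18.7, 15.2 and 17.3) and Itga4 (1.48, 0.607 and 1.98) were lowest in PS19.

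Markers of other leukocytes differed widely in level. The 10 neutrophil markers summed to 22 reads in WT, against 105 in PS19 and 10 in PS19 Zbp1+/-, with Ngp at 5, 29 and 0 and S100a9 at 7, 23 and 3, while Ly6g and Cxcr2 were at 0 in every library. The 12 T cell markers summed to 56, 141 and 102 reads, but were split. Lck was at 25, 50 and 53, Trac at 3, 12 and 20 and Cd4 at 5, 10 and 17. Cd3e was at 0, 4 and 0, Cd3d at 0, 9 and 0 and Cd8a at 7, 18 and 0. Of the 12, 4 were higher and 7 lower in PS19 Zbp1+/- than in PS19. The 7 NK cell markers summed to 45, 36 and 8 reads, in WT mostly Eomes (41, 12 and 0). Nkg7 was at 3, 13 and 0 and Prf1 at 0, 0 and 8. The 6 monocyte markers, mostly Vcan, summed to 1.42, 2.93 and 1.24 FPKM, with Ccr2 at 4, 8 and 0 reads. Dendritic cell markers summed to 5.08, 4.84 and 3.54 FPKM, mostly from Flt3 and Zbtb46, with Itgae at 4, 15 and 7 reads and Ccr7 at 2, 0 and 0. Border macrophage markers summed to 244, 344 and 34 reads, with Mrc1 at 80, 119 and 6, and were thus lowest with the choroid plexus markers in PS19 Zbp1+/-. The 7 B cell markers summed to 9.74, 26.3 and 4.41 FPKM, mostly Ighm (295, 809 and 94 reads), with Ms4a1 at 0 in every library. The part of these cells, of the choroid plexus content and of sex in the members' differences was not tested.

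**Figure D5:**
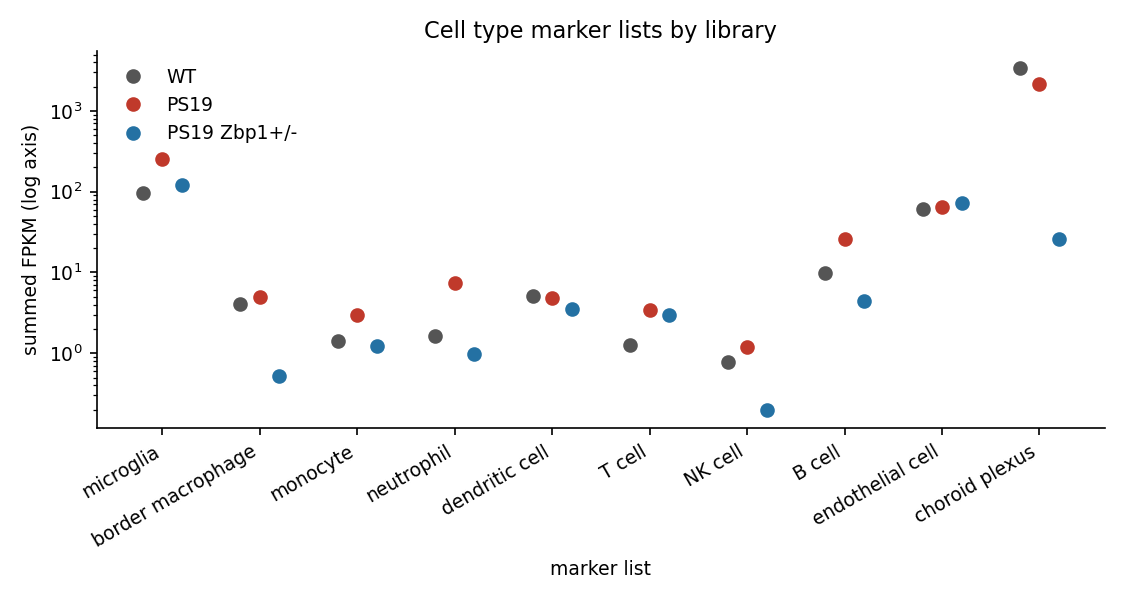
Summed FPKM (log axis) of 10 cell type marker lists in the 3 libraries, 1 library each, without error bars. The microglia sum is highest in PS19 (256.9), the choroid plexus sum is 25.6 in PS19 Zbp1+/-, and the endothelial sum is similar in all 3 (60.7 to 71.8).

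Genes with the most similar pattern were sought over the 3 libraries among 13099 protein-coding genes with at least 50 reads in some library. The measure was the Euclidean distance of their log2 read ratios in PS19 over WT and PS19 Zbp1+/- over PS19. Reads were set to at least 3 for these ratios. For Itgb2 the nearest were Osmr (distance 0.12; 97, 749 and 139 reads), Serpina3n and Naip2. Nearest to C3ar1 were Fam19a4, Rsad2 and Lag3, at 0.19 to 0.33, and nearest to Itgam were Il33, Gsdmd and St8sia6, at 0.02 to 0.06. Itgal was nearest to Lox, Fcgr2b and Ifi44. Itgal, Lox and Ifi44 had 0 reads in PS19 Zbp1+/-, so the floor of 3 reads sets part of their likeness. Itgax had no near match by this measure: the closest, Cst7 with 12, 248 and 0 reads, was 1.19 away, followed by Mx1 and Shox2. Mx1 and Shox2 also had 0 reads in PS19 Zbp1+/-, so the floor limits the ratios of all these genes and their distances to Itgax. Itgb5 lay nearest to Kcnj10, Adamts6 and Pax6, Itga4 to Dyrk1b, Aff3 and Zc3h7b, and C5ar1 to Gm9938, Plcb2 and Sash3.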

How the data were processed

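Hippocampal RNA was profiled in 3 libraries, 1 per genotype. The authors deposited 1 table of FPKM values, with gene names, positions, lengths and biotypes. Per the submitters' processing notes, Trim Galore 0.6.5, STAR 2.5.3a, featureCounts 2.0.4 and the build mm39 were used; the annotation release, strand setting and scaling are not given in the sources used here. Positions in the table matched GENCODE M21, on GRCm38, for all 8 members and for 98.3% of the 54409 IDs that M21 holds, so they are given as GRCm38 positions. FPKM times gene length was a whole multiple of 1 step, within 0.01 reads, in 100% of values, so whole reads were recovered from the deposited FPKM. The steps imply library sizes of 17253479, 17287957 and 15826984 in WT, PS19 and PS19 Zbp1+/-. The recovered reads totalled 16746085, 16400328 and 17109734. The implied size is thus below the total in PS19 Zbp1+/- alone, and it is a scaling factor whose origin is not given.

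Libraries were compared by differences of log2(FPKM + 1). A gene was called at 1 log2 unit, among protein-coding genes that reached 1 FPKM in one or both libraries. No test was made. Ratios of reads per library size have exact Clopper-Pearson intervals, single levels exact Poisson intervals, and a count of 0 was set to 3 reads. All 8 members are named, and from each related gene list the 3 tested genes with the largest difference between PS19 and WT, with partners and ligands. Genes near the Itgal and Itgam loci, the 3 genes nearest to each member in pattern, marker genes and library checks are named too. Itga3, Itga9, Flt3, Zbtb46 and the named T cell markers other than Cd3e were picked with their values in view. One gene that the rule names is not reported here. The members and the lists were chosen with earlier results of these data known. The procedure was tested on simulated data. Scripts ran in Python 3.11.15 with scipy 1.17.1, pandas 2.3.3, numpy 2.4.6 and matplotlib 3.10.9. Recovered reads entered no count test, since each genotype has 1 library.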

Additional observations from a re-analysis of the deposited data

How the results depend on the processing

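Alternatives were pseudocounts of 0.1 and 0.5, no filter, at least 50 reads, rescaling to TPM or by total reads, subtracting the median, ratios of reads set to at least 3, every biotype, and thresholds of 1.5-fold and 4-fold. The number of members called higher in PS19 than in WT was 4. It was 7 after rescaling to TPM, when all members except Itga4 were called, and 2 at 4-fold, Itgax and Itgb2. The number called lower in PS19 Zbp1+/- than in PS19 was 4. It was 6 under TPM, with Itgal and Itgb5 added, 5 by total reads and at 1.5-fold, with Itgb5 added, and 1 at 4-fold, Itgax; in PS19 Zbp1+/- against WT it was 0 under each alternative. The sign of a member's difference held in 48 of 48 values in each comparison, over 6 alternatives. These were the pseudocounts, TPM, total reads, the subtracted median and the read ratios. A change of pseudocount cannot turn a sign, and the read ratios use the same library sizes. Only TPM, total reads and the subtracted median could therefore have turned one. Of all tested genes, the share called higher in PS19 than in WT ran from 0.291% at 4-fold to 6.34% at 1.5-fold, and the share called lower in PS19 Zbp1+/- than in PS19 from 0.814% at 4-fold to 13.6% after rescaling to TPM. TPM moved the median of all tested genes to 0.11 in PS19 minus WT, -0.25 in PS19 Zbp1+/- minus PS19 and -0.15 in PS19 Zbp1+/- minus WT. The share of higher genes among calls was 10.4% under TPM in PS19 Zbp1+/- minus PS19, and 18.5% under TPM and 17.3% by total reads against 32.0% in PS19 Zbp1+/- minus WT. Depth limits Itgal, Itgax and C3ar1 outside PS19, at 0 to 20 reads. No paired analysis was possible because each genotype has 1 library.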
